A study of Mus musculus with 6 samples.

Results

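Hox cluster genes encode homeodomain transcription factors, and all 39 gene symbols that consist of Hoxa, Hoxb, Hoxc or Hoxd followed by only a number were taken from a table of 49568 gene symbols. The table held the read counts of whole lungs from 6 mice, 3 TNF-Tg and 3 WT, at 4 months of age. TNF-Tg mice were of a line that carries 1 copy of the human TNF gene, and WT mice were their littermates without it. All mice were female and on the C57BL/6 background, and the labels name no other allele or agent in either group. Each library came from the whole lung of 1 mouse, so every value is a sum over all cell types of the organ, and fewer cells of a type cannot be told apart from less RNA per cell.

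The Hox genes lie in 4 clusters on separate chromosomes and are numbered by paralog group, from 1 at the 3′ end to 13 at the 5′ end of a cluster. In the embryo they are switched on in that order along the body axis, and their proteins bind DNA together with cofactors of the TALE homeodomain family. Retinoic acid activates genes at the low-numbered end, while Polycomb and Trithorax complexes hold the clusters silent or active. In the lung, Hox genes are expressed mainly in the mesenchyme, where Hoxa5 and Hoxb5 act during airway branching, and their expression persists in the adult.

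Total counts per lung lay between 25396923 and 32529408, at which 3 counts, the smallest number taken as detected, correspond to 0.0922 to 0.118 CPM (counts scaled to the library size). Of all symbols, 19199 were kept by the low-count filter of edgeR, and 9096 of them passed an adjusted p of 0.05 (edgeR's quasi-likelihood test, Benjamini-Hochberg adjusted over the genes tested), which is 47.4% of the genes tested. These were 24.0% higher and 23.4% lower in TNF-Tg lungs, and the median log2 fold change over the genes tested was 0.03. Mouse Tnf had 106, 213 and 405 counts in TNF-Tg lungs against 16, 14 and 35 in WT lungs, and the human transgene itself was not measured here. Gm42418 alone took 5.22% of the counts of TNF-Tg 1, and at most 0.274% in the other 5 lungs. WT 1 held genes of squamous epithelium and skeletal muscle far above the other lungs, with a summed normalized count of 5 skeletal muscle markers that reached 43889. Lung epithelial, endothelial and mesenchymal markers were abundant in all 6 lungs.

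Of the 39 Hox genes, 17 passed the filter on low counts, among them Hoxa2 to Hoxa7, Hoxb2 to Hoxb8, Hoxc4, Hoxd8 and Hoxd9. In TNF-Tg lungs, 3 of these fell (Hoxb5, Hoxa5 and Hoxb4) and 1 rose (Hoxa2). The 4 called genes were 23.5% of the 17, below the 47.4% over the genes tested. The groups did not overlap for 7 of the 17 (41.2%), beside 58.7% of all tested genes. The fitted level was lower in TNF-Tg lungs for 11 and higher for 6, and their median log2 fold change was -0.09, beside 0.03 over the genes tested. The share of Hox genes called was thus below that of the genes tested, with no test of the shares themselves, and the differences lay in single members.

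Reads of paralogs can be confused where their sequences are alike. No window of 100 bases was shared between the transcripts of Hoxa5 and Hoxb5. Over the Hox transcripts, such windows were shared only between Hoxc5 and Hoxc10 and between Hoxd3 and Hoxd4, and none of these 4 passed the filter.

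Hoxb5, a paralog 5 gene of the Hoxb cluster (chromosome 11, 96303336 to 96306121, plus strand), had the largest difference. Its normalized counts, the counts scaled to the average library by edgeR's TMM method, were 198, 214 and 209 in TNF-Tg lungs and 915, 898 and 612 in WT lungs. The groups lay far apart, and the TNF-Tg lungs differed among themselves by less than the WT lungs, of which WT 3 was the lowest. Group means were 207 ± 8.38 (SD, n = 3) and 808 ± 170 (SD, n = 3), and the log2 fold change was -1.97 with a standard error (SE) of 0.17 (adjusted p = 7.3e-05, edgeR's quasi-likelihood test, Benjamini-Hochberg adjusted), so that the level was 3.91-fold higher in WT lungs. Of the bases in its exons, 3.59% overlap the antisense RNA Hoxb5os on the other strand. The strand setting of the counting is not given in the sources used here, so reads of such overlaps cannot be told apart.

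Hoxa5 (chromosome 6, 52201754 to 52204587, minus strand), needed for the formation of the trachea and lung, also fell. It had 334, 205 and 287 normalized counts in TNF-Tg lungs and 614, 493 and 431 in WT lungs. All WT lungs were above all TNF-Tg lungs. The fall was 0.90 on the log2 scale (SE 0.21, adjusted p = 0.00855, edgeR's quasi-likelihood test), with means of 275 ± 65.2 and 512 ± 93.1 (SD, n = 3 each). Its exons overlap no other annotated gene. The calls of Hoxa5 and Hoxb5 held with each lung left out in turn.

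Hoxb4 (chromosome 11, 96318267 to 96321638, plus strand), which expands blood stem cells when overexpressed, fell by less. The normalized counts were 233, 262 and 287 in TNF-Tg lungs against 381, 405 and 339 in WT lungs, again without overlap. The log2 fold change was -0.52 (SE 0.14, adjusted p = 0.0163, edgeR's quasi-likelihood test), with means of 261 ± 26.9 and 375 ± 33.4 (SD, n = 3 each). The call was lost without TNF-Tg 2 (adjusted p = 0.0511), without WT 1 (0.0506) and without WT 2 (0.0679), while the log2 fold change stayed between -0.61 and -0.47.

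Hoxa2 (chromosome 6, 52162417 to 52164831, minus strand), which gives the second pharyngeal arch its identity in the embryo, was the member that rose. It had 108, 75.6 and 104 normalized counts in TNF-Tg lungs and 52.3, 72.0 and 46.3 in WT lungs. The groups were separated only by the small gap between TNF-Tg 2 and WT 2. The log2 fold change was 0.75 (SE 0.25, adjusted p = 0.0401, edgeR's quasi-likelihood test), with means of 95.9 ± 17.7 and 56.8 ± 13.4 (SD, n = 3 each). The call was lost when TNF-Tg 1, TNF-Tg 3, WT 1 or WT 3 was left out, with an adjusted p of up to 0.138. In addition, 15.0% of its exonic bases overlap the gene model Gm28308 on the same strand, so reads in that part could belong to either, and the same model covers 8.01% of those of Hoxa3.

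**Figure D1:**
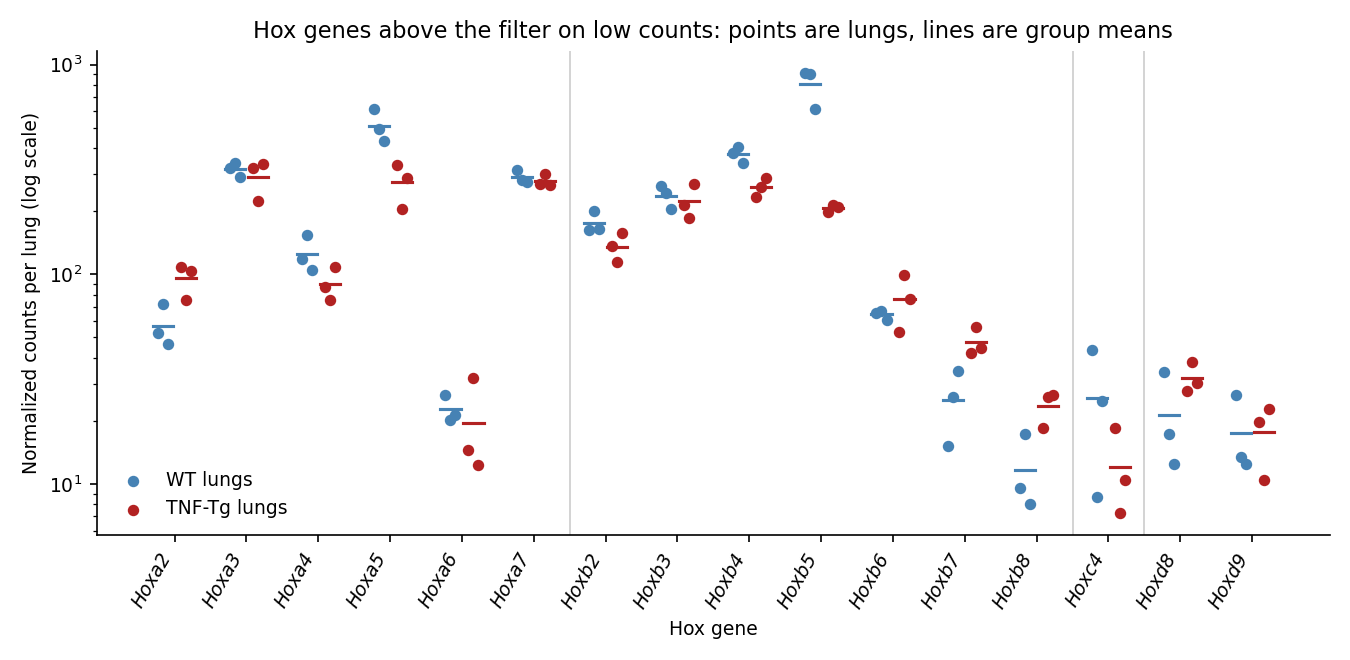
Normalized counts (log scale) of 16 of the 17 Hox genes that passed the filter, with 1 point per lung (blue, WT; red, TNF-Tg) and a line at each group mean. Hoxb5 shows the widest gap, with WT lungs at 612 to 915 and TNF-Tg lungs at 198 to 214, whereas Hoxa3 and Hoxa7 overlap.

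Hoxa3 and Hoxa7 complete the 5 Hox genes with the highest mean CPM in WT lungs. Hoxa3, required for the thymus and parathyroid glands, had 320, 223 and 335 normalized counts in TNF-Tg lungs and 320, 341 and 290 in WT lungs. Hoxa7, which acts in the patterning of the thoracic vertebrae, had 270, 300 and 267 against 314, 281 and 276. Both overlapped between the groups, with log2 fold changes of -0.12 (adjusted p = 0.624) and -0.06 (adjusted p = 0.745) in edgeR's quasi-likelihood test. Of their exonic bases, 25.4% and 20.4% overlap genes on the other strand.

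In the Hoxb cluster, Hoxb4 and Hoxb5 were the only 2 of the 7 tested members that were called. The fitted log2 fold changes of Hoxb2 to Hoxb5 were below 0 (that of Hoxb3 turned to 0.03 when TNF-Tg 2 was left out), and those of Hoxb6 to Hoxb8 were above 0 (that of Hoxb6 ranged down to 0.01 with 1 lung left out). Hoxb7, with 42.2, 55.9 and 44.4 normalized counts against 15.2, 25.9 and 34.7, had a log2 fold change of 0.90 (adjusted p = 0.0548, edgeR's quasi-likelihood test). Hoxb8, which blocks the maturation of myeloid progenitors when overexpressed, had 18.5, 25.9 and 26.5 against 9.52, 17.3 and 8.01, a log2 fold change of 1.03 (adjusted p = 0.056). The groups did not overlap for either gene, but neither passed the cutoff. Hoxb7 passed it without WT 3 (adjusted p = 0.0282) and Hoxb8 without WT 2 (adjusted p = 0.0311). Of the others, Hoxb2 had -0.37 (adjusted p = 0.132) with groups that did not overlap, Hoxb3 -0.09 (adjusted p = 0.723) and Hoxb6 0.25 (adjusted p = 0.47). Of the exonic bases of Hoxb2 and Hoxb3, 27.3% and 52.9% overlap genes on the other strand. No test against paralog number was made.

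In the Hoxa cluster, Hoxa3 to Hoxa7 were all fitted lower, with log2 fold changes of -0.48 for Hoxa4 (adjusted p = 0.118) and -0.21 for Hoxa6 (adjusted p = 0.707) in edgeR's quasi-likelihood test. The signs of Hoxa3 and Hoxa6 turned when single lungs were left out, as did that of Hoxb3. For these members, and for the other genes that missed the cutoff, the test does not show that the levels were alike.

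The tested members of the other clusters were scarce. Hoxc4 had 14, 7 and 11 counts in TNF-Tg lungs against 46, 9 and 28 in WT lungs, with the highest count in WT 1, a log2 fold change of -1.13 and an SE of 0.61 (adjusted p = 0.16, edgeR's quasi-likelihood test). It passed the cutoff only when WT 2 was left out (adjusted p = 0.044). Hoxd8 had a log2 fold change of 0.59 (SE 0.40, adjusted p = 0.261) and Hoxd9 of 0.01 (SE 0.44, adjusted p = 0.992).

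**Figure D2:**
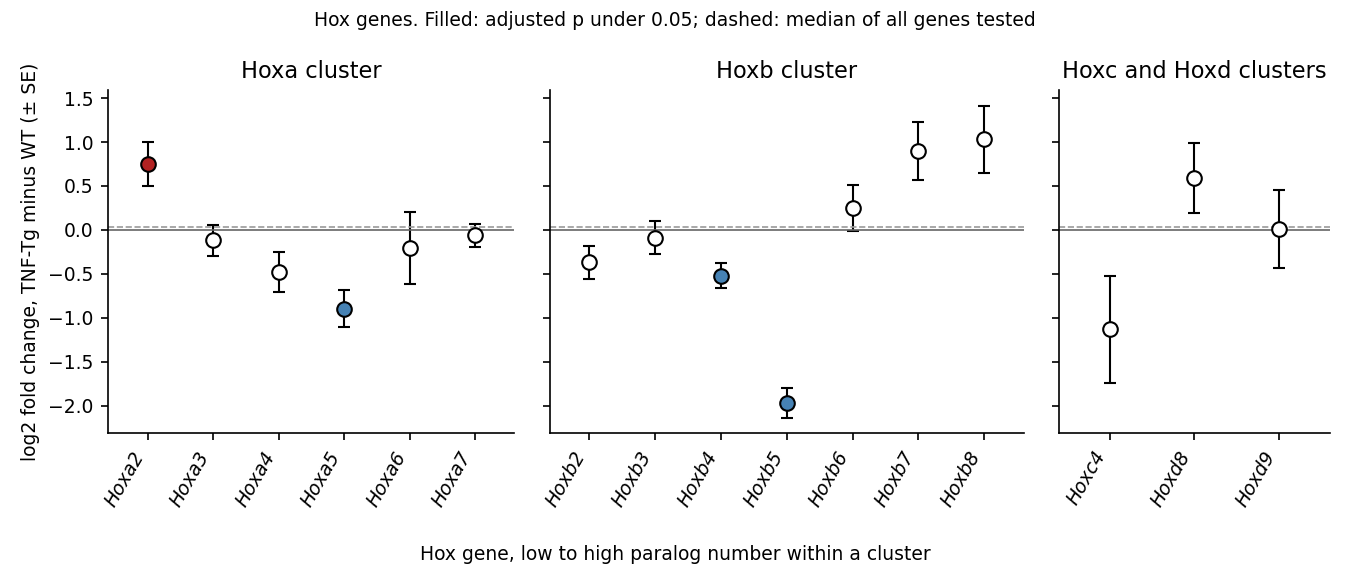
Log2 fold change (TNF-Tg minus WT) with its standard error for 16 of the 17 tested Hox genes, ordered by paralog number within each cluster. Filled symbols passed an adjusted p of 0.05 (blue, lower; red, higher), and the dashed line is the median of all genes tested (0.03). Hoxb5 at -1.97 and Hoxa5 at -0.90 are the lowest points of their clusters.

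The makeup of the Hox RNA was compared within each lung, where the library size cancels. Hoxb5 gave 22.1%, 22.4% and 19.5% of the counts on the tested Hoxb genes in TNF-Tg lungs, and 50.5%, 48.4% and 43.0% in WT lungs. The ratio of Hoxb5 to Hoxb4, its neighbour on the chromosome, was 0.847, 0.818 and 0.727 against 2.40, 2.22 and 1.81. Hoxb4 was thus the more counted gene of this pair in every TNF-Tg lung, and Hoxb5 in every WT lung. Hoxa5 gave 28.1%, 21.8% and 25.1% of the counts on the tested Hoxa genes against 41.7%, 35.1% and 35.6%. The ratios of Hoxa5 to its direct neighbours overlapped between the groups, with 3.83, 2.71 and 2.67 against 5.20, 3.19 and 4.10 for Hoxa4, and 23.0, 6.39 and 23.4 against 23.0, 24.5 and 20.2 for Hoxa6. The ratio of Hoxa5 to Hoxa7 did not overlap, with 1.23, 0.683 and 1.07 against 1.95, 1.75 and 1.56. The ratio of Hoxa2 to Hoxa3 was 0.337, 0.340 and 0.310 in TNF-Tg lungs and 0.164, 0.211 and 0.160 in WT lungs, without overlap. With 3 lungs against 3, an exact two-sided permutation test of such a ratio cannot go below p = 0.1, and none was run.

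Per length, as CPM per kilobase of exon, Hoxb5 and Hoxa5 led in WT lungs with 9.56 ± 2.02 and 9.0 ± 1.64 (SD, n = 3 each), a difference within their spread. Hoxb4 followed at 4.81 ± 0.429 and Hoxa7 at 3.33 ± 0.237, each below the gene before it by more than their spread. Hoxa4 at 2.60 ± 0.531 was within the spread of Hoxa7. In TNF-Tg lungs the level of Hoxa5 was 4.83 ± 1.14, followed by Hoxb4 with 3.35 ± 0.346, Hoxa7 with 3.20 ± 0.208 and Hoxb5 with 2.45 ± 0.0992. Neither Hoxa5 and Hoxb4 nor Hoxb4 and Hoxa7 differed beyond their spread there. Where the length of the longest transcript was used in place of all exons, 13 of 16 levels moved by less than the SD and 3 moved further. In WT lungs Hoxa3 moved from 1.74 to 4.03, Hoxa7 from 3.33 to 4.71 and Hoxb3 from 1.84 to 2.45, which placed Hoxa7 beside Hoxb4 and Hoxa3 above Hoxa4. In TNF-Tg lungs Hoxa7 then had 4.53 ± 0.294, above Hoxb4 at 3.35 ± 0.346 by more than their spread. Hoxa3 had 3.72 ± 0.78 there, within the spread of Hoxb4. The order of these genes thus depends on the length used. At the low end, Hoxb8 stood at 0.145 ± 0.0622 in WT lungs and 0.295 ± 0.0558 in TNF-Tg lungs.

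The 22 Hox genes that did not pass the filter were at the edge of detection. Of these, 19 had at most 5 counts in every lung, and Hoxc9 and Hoxd12 had none. A count of 0 allows up to 3 counts, or 0.0922 to 0.118 CPM, and covers counting error only. Hoxa9, a gene of blood progenitors, had 1, 3 and 3 counts in TNF-Tg lungs and none in any WT lung. Hoxb9 had 2, 2 and 7 counts against none, and was called only when no filter on low counts was applied (adjusted p = 0.0324, edgeR's quasi-likelihood test). Both groups of Hoxa9 lay at or under the floor of 3 counts per lung. The 15 untested genes of paralog groups 9 to 13 together had 12, 14 and 20 counts in TNF-Tg lungs against 8, 4 and 3 in WT lungs. With the tested Hoxd9 added, the sums were 27, 24 and 44 against 36, 18 and 17, which overlapped between the groups. No test of these sums was made. In the Hoxc cluster, Hoxc5 had 36 counts in WT 1 and at most 9 in the other lungs, and Hoxc6 had 11 counts in WT 1 and at most 4 elsewhere, in the library that also held squamous and skeletal muscle markers, whose part in these counts was not tested.

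The promoters of 3 of the 4 called genes are shown to give the DNA next to the start of members that moved, and that of Hoxb5 was not analysed here. Of the 17 tested genes, 10 had a promoter in the RefSeq table (GRCm38.p6), among them the called genes Hoxa5, Hoxb4 and Hoxa2. The 250 bases before the start lie at chr6:52204588-52204837 (minus strand) for Hoxa5, chr11:96318017-96318266 (plus strand) for Hoxb4 and chr6:52164832-52165081 (minus strand) for Hoxa2. Capitals mark motif matches.
Hoxa5 promoter: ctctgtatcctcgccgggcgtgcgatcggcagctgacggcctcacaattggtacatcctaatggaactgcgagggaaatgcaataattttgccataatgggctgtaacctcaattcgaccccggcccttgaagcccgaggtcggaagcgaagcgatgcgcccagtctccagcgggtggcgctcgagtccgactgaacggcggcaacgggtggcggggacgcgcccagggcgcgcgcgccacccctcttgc
Hoxb4 promoter: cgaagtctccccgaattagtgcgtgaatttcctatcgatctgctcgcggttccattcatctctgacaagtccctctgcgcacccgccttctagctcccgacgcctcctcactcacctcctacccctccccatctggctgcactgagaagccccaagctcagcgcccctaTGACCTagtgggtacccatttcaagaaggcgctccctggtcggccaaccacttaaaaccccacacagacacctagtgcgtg
Hoxa2 promoter: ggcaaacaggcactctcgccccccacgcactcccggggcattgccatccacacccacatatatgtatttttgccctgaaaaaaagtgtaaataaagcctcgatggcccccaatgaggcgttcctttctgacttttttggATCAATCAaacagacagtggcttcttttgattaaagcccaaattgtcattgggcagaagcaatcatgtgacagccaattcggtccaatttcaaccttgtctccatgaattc
Both strands were searched for TGATNNAT, a composite motif of HOX and PBX proteins, for AGGTCA, a half-site of retinoic acid receptors, and for GGGACTTTC, a κB motif of NF-κB. These occurred in 7.68%, 14% and 0.289% of the 32851 promoter windows of the same length. Hoxa2 held a match to the composite motif that begins 111 bases before the start, and Hoxb4 held a match to the half-site that begins 81 bases before it. Hoxa5 held none of these letters. Among the members that were not called, Hoxb8 held the composite motif, and Hoxc4 and Hoxd8 held the half-site. The CpG count was 28 in the Hoxa5 window, 14 in that of Hoxb4 and 6 in that of Hoxa2, where the median of all windows was 6.

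The TALE cofactors, which bind DNA with Hox proteins, were all measured. Of 9 genes, 6 fell and 1 rose, against 23.4% and 24.0% of the genes tested, and the median log2 fold change was -0.55. Among the PBX genes, Pbx3 fell by 0.55 and Pbx4 by 1.49 on the log2 scale, with adjusted p of 0.00685 and 0.00357 (edgeR's quasi-likelihood test). Pbx2 had a log2 fold change of 0.11 (adjusted p = 0.328). Pbx4 had only 23.7 to 34.2 normalized counts in TNF-Tg lungs.

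Among the MEIS genes, which carry PBX into the nucleus and act as cofactors themselves, Meis1 fell by 1.07 (SE 0.19, adjusted p = 0.00218) and Meis2 by 0.94 (SE 0.15, adjusted p = 0.00161) on the log2 scale. Meis1 had 392, 350 and 487 normalized counts in TNF-Tg lungs against 1017, 888 and 671 in WT lungs. Meis3 moved the other way, with 485, 579 and 526 against 319, 316 and 435 and a log2 fold change of 0.57 (SE 0.16, adjusted p = 0.0182). This call was lost without TNF-Tg 2, TNF-Tg 3, WT 1 or WT 2, with an adjusted p of up to 0.079. Of the related PREP genes, Pknox2 fell by 1.51 on the log2 scale (SE 0.18, adjusted p = 0.000332), while Pknox1 had 0.23 (adjusted p = 0.107). All adjusted p are from edgeR's quasi-likelihood test.

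Of 18 genes of the retinoic acid pathway, 14 were tested, 7 fell and 3 rose, beside 23.4% and 24.0% of all genes tested, and the median log2 fold change was -0.25. The retinaldehyde dehydrogenases, which make retinoic acid, fell. Aldh1a2 had 434, 160 and 293 normalized counts in TNF-Tg lungs against 925, 852 and 1327 in WT lungs, a log2 fold change of -1.81 (adjusted p = 0.00287), and Aldh1a1 had -1.36 (adjusted p = 8.41e-05, edgeR's quasi-likelihood test). Aldh1a3 and Dhrs3 were also lower, as were the receptors Rara, Rarb and Rarg. Rxrg, a retinoid X receptor that partners the retinoic acid receptors, rose from 41.9, 27.8 and 36.5 to 194, 231 and 223, a log2 fold change of 2.60 (adjusted p = 5.16e-05). The uptake receptor Stra6 and Cyp26b1, which degrades retinoic acid, were higher as well. With 1 lung left out, Stra6 kept its call only without TNF-Tg 3 or WT 3 (adjusted p up to 0.131 otherwise), Aldh1a3 only without TNF-Tg 2 (up to 0.116) and Rarb only without TNF-Tg 1 (up to 0.11), and Rara lost it without TNF-Tg 2 or WT 1 (up to 0.0649). With the replicate block, Stra6, Aldh1a3 and Rarb were not called (adjusted p = 0.0819, 0.0809 and 0.0874). Without WT 1, 6 of the genes were called in place of 10.

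**Figure D3:**
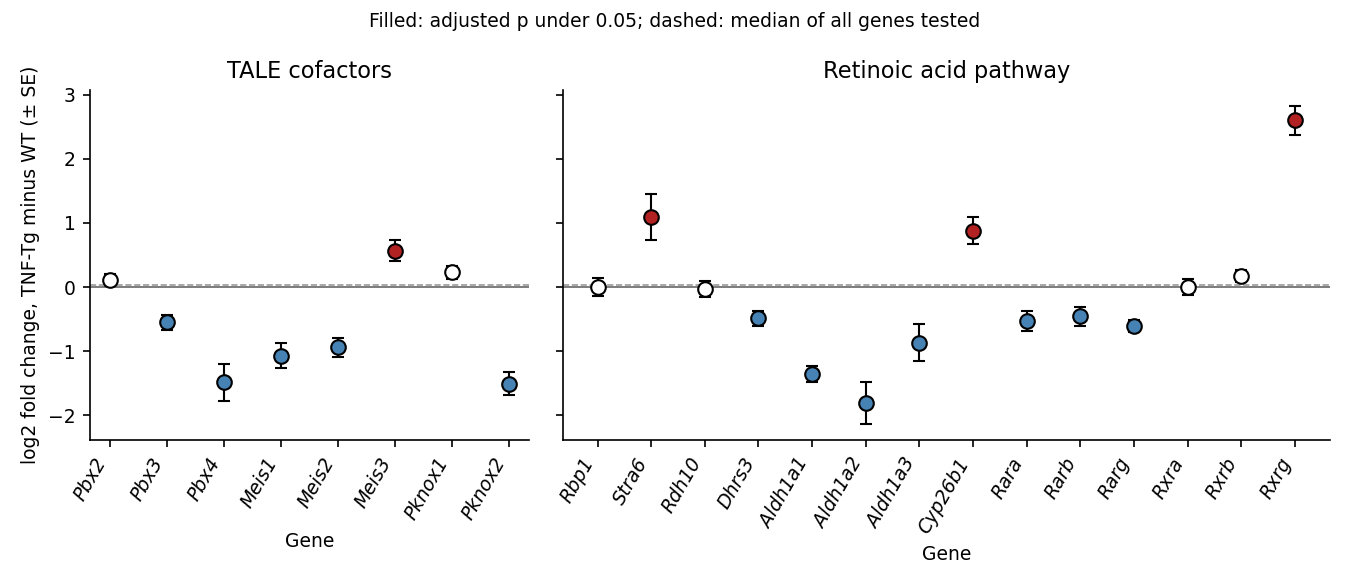
Log2 fold change (TNF-Tg minus WT) with its standard error for 8 of the 9 TALE cofactors and the 14 tested genes of the retinoic acid pathway. Filled symbols passed an adjusted p of 0.05 (blue, lower; red, higher), and the dashed line is the median of all genes tested (0.03). Meis3 at 0.57 is the cofactor that rose, and Rxrg at 2.60 is the highest point.

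Polycomb genes, whose products keep Hox clusters silent, did not move one way. Of 25 tested, 5 rose and 5 fell, where 24.0% and 23.4% of all genes tested did, with a median log2 fold change of 0.09. Ezh1, a histone H3 methyltransferase, fell by 0.58 on the log2 scale (adjusted p = 0.00171, edgeR's quasi-likelihood test). Mtf2 and Pcgf5 rose by 0.55 (adjusted p = 0.00954) and 0.54 (adjusted p = 0.0167) in the same test. Pcgf5 was not called without TNF-Tg 1, TNF-Tg 3 or WT 2 (adjusted p up to 0.0706). Without TNF-Tg 1, 4 of the 25 were called, and without TNF-Tg 3 or WT 2, 6.

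Of 16 Trithorax and related genes, 5 fell and none rose, fewer in all than the 47.4% called over the genes tested, where 23.4% were lower. The median log2 fold change was -0.19. Kdm6b, which removes the Polycomb mark, fell by 0.90 (adjusted p = 0.000985), Mllt3 by 0.62 (adjusted p = 0.00942) and Mllt1 by 0.53 (adjusted p = 0.00131) on the log2 scale in edgeR's quasi-likelihood test. Of the 6 axial regulators, 3 were tested and 2 rose (24.0% of all genes tested did), Gdf11 by 0.66 (adjusted p = 0.0481) and Gmnn by 0.60 (adjusted p = 0.0357). Cdx1, Cdx2 and Cdx4, the activators of Hox genes in the embryo's trunk, did not pass the filter. Neither Gdf11 nor Gmnn was called when any of TNF-Tg 1, TNF-Tg 2, TNF-Tg 3, WT 1 or WT 2 was left out.

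Of 18 noncoding RNAs of the clusters that were looked for, 17 were found in the table and 5 were tested. Hoxaas2 alone rose, beside 24.0% of all genes tested, with 109, 92.1 and 102 normalized counts in TNF-Tg lungs against 54.2, 50.9 and 64.0 in WT lungs, a log2 fold change of 0.84 (SE 0.20, adjusted p = 0.0101, edgeR's quasi-likelihood test). Hotairm1, a noncoding RNA of the Hoxa cluster that is induced in maturing myeloid cells, had 19.8, 29.0 and 35.9 against 47.6, 51.8 and 46.3, without overlap, and narrowly missed the cutoff (log2 fold change -0.77, adjusted p = 0.0521). Without TNF-Tg 3, 2 of the 5 were called. Hoxaas3, Hoxb3os and Hoxb5os had -0.07, -0.18 and -0.21, with adjusted p of 0.874, 0.557 and 0.656.

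The genes that flank the clusters are not part of the Hox family and have other functions. Of 16 looked for, 15 were found and 13 tested, of which 4 fell and 2 rose, with a median log2 fold change of 0.08. These 6 of 13 are close to the 47.4% called over all genes tested. Beside the Hoxa cluster, Skap2 rose by 0.60 (adjusted p = 0.000505, edgeR's quasi-likelihood test), and Hibadh and Tax1bp1 had 0.08 (adjusted p = 0.561) and 0.13 (adjusted p = 0.359). Next to the Hoxb13 end of the Hoxb cluster, Ttll6 fell by 2.10 (adjusted p = 0.000217) and Calcoco2 had -2.29 (adjusted p = 0.00417), and beyond the Hoxb1 end Skap1 had 0.43 (adjusted p = 0.277) and Snx11 0.12 (adjusted p = 0.488). Beside the Hoxc cluster, Cbx5 fell by 0.71 (adjusted p = 0.00222) and Calcoco1 by 0.74 (adjusted p = 0.00164), with Smug1 at -0.18 (adjusted p = 0.305) and Hnrnpa1 at 0.13 (adjusted p = 0.384). Beside the Hoxd cluster, Mtx2 rose by 0.58 (adjusted p = 0.00739) and Atf2 had -0.14 (adjusted p = 0.251). All of these are log2 fold changes.

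Markers of the cell types moved between the groups as well, where 23.4% of all genes tested were lower and 24.0% higher. Of 12 lung mesenchyme markers, 9 fell and none rose, with a median log2 fold change of -0.99, and their summed normalized counts were 37703 to 40042 in TNF-Tg lungs and 82638 to 108398 in WT lungs. The most counted were Inmt, with -2.65 (adjusted p = 1.46e-05), and Col1a2, with -0.59 (adjusted p = 0.0239, edgeR's quasi-likelihood test). All 6 endothelial markers fell (median -1.31), as did 7 of 8 epithelial markers (median -1.45) and all 4 mural cell markers (median -0.82). Leukocyte markers rose for 5 of 7 and fell for 1, with summed counts of 52322 to 58163 against 11439 to 12715. Hoxb5 fell by more than the median mesenchyme marker, and Hoxa5 and Hoxb4 by less, with no test of these differences. The part of the markers in the Hox results was not tested.

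Markers of other tissues and cells were also counted. Skeletal muscle markers summed to 408 to 973 in TNF-Tg lungs and 836 to 43889 in WT lungs, where WT 1 was the highest. Squamous epithelium markers summed to 13.2 to 43.5 against 46.1 to 100134. Heart muscle markers fell for 3 of 3, with sums of 6424 to 8101 in TNF-Tg lungs against 22298 to 30155 in WT lungs. Blood progenitor markers fell for 3 of 4 and rose for 1, with sums of 2924 to 3696 against 4368 to 5433. Among the others, fat cell markers fell for 1 of 4 tested and mesothelial markers for 1 of 3, shares near the 23.4% of all genes tested that were lower. The count of fat cell markers called was 0 without TNF-Tg 1, TNF-Tg 2 or WT 3 and 4 without TNF-Tg 3, and that of mesothelial markers was 2 without WT 3. None of the 3 thymocyte markers passed the filter. With TNF-Tg 1 and WT 1 both left out, Hoxb5 had a log2 fold change of -1.87 (adjusted p = 0.000659) and Hoxa5 of -0.94 (adjusted p = 0.0147), while Hoxb4 (-0.48, adjusted p = 0.109) and Hoxa2 (0.57, adjusted p = 0.267) were not called in edgeR's quasi-likelihood test.

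**Figure D4:**
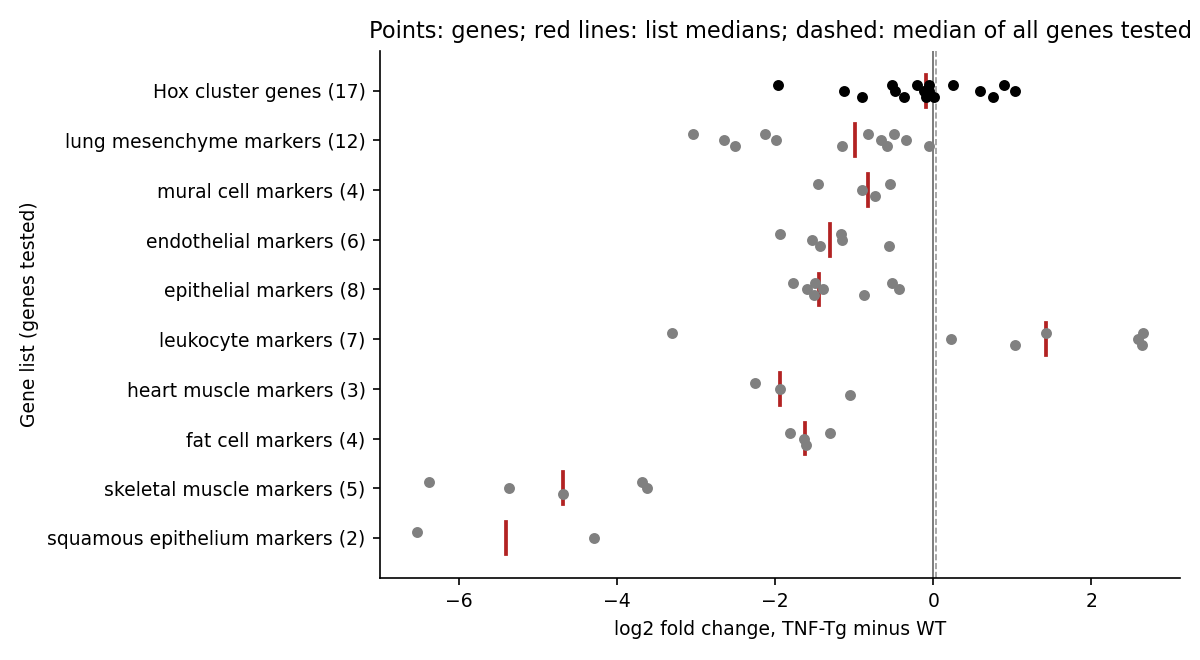
Log2 fold change (TNF-Tg minus WT) of the 17 tested Hox genes and of marker genes of lung and other cell types, with 1 point per gene, a red line at each list's median and the number of genes in parentheses. The Hox median lies at -0.09, beside -0.99 for mesenchyme, -1.31 for endothelial, -1.45 for epithelial and 1.43 for leukocyte markers.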

How the data were processed

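Whole lungs of 3 TNF-Tg and 3 WT mice, which are different animals, were sequenced from stranded poly(A) libraries, 1 per mouse. Per the labels and the study's methods, the authors trimmed reads with Trimmomatic (0.36 in the submitters' notes), mapped them with STAR (2.5.2b) to GRCm38.p5 and assigned them to genes with featureCounts. The deposited values are raw counts per gene symbol and lung, without normalization, and no per-sample column was left unused. The annotation and strand setting of the counting are not given in the sources used here.

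Counts were tested with edgeR (4.0.16, R 4.3.3) after filterByExpr and TMM normalization, by quasi-likelihood F-tests in a model of genotype alone, at a Benjamini-Hochberg adjusted p of 0.05 over 19199 genes. The standard error is the size of the log2 fold change divided by the square root of F. Total counts per lung were 25396923 to 32529408, which sets the floor of 3 counts at 0.0922 to 0.118 CPM. Alternatives were DESeq2 (1.42.0), limma-voom (3.58.1), other scalings, other filters, robust dispersion, a minimum log2 fold change of 1, the replicate number as a block and each lung left out in turn. Leaving out TNF-Tg 1 and WT 1 together was chosen after seeing the data. The test was tried on simulated counts before use. CPM used the TMM-scaled library size, and the floor the total counts.

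The Hox genes and the gene lists were chosen with earlier results of these data known. Every Hox gene is counted, and a few items are left out of the text as not reported here. Called members and the 5 with the highest mean CPM in WT lungs have their value in every lung, other tested members their fold change and adjusted p, and the rest their counts. Lung values of Hoxb7, Hoxb8, Hoxc4 and of some untested members, and the names of further retinoic acid genes, were added after their values were seen. From each list that is not of markers, the called genes with the 3 largest changes were named, with other tested TALE cofactors, noncoding and flanking genes. From marker lists, at most the 2 most counted are named. All 39 Hox genes were placed on GRCm38 with GENCODE M21, from which exon lengths were taken. The numbers of the mice do not pair them, with correlations of same-numbered deviations of -0.149, -0.00429 and -0.242. Replicates of a group differed by more than sampling noise (chi-square per degree of freedom 53.7 to 140).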

Additional observations from a re-analysis of the deposited data

How the results depend on the processing

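Hoxb5 and Hoxa5 were called in every fit tried, except that a minimum log2 fold change of 1 left Hoxb5 alone. Of 238 comparisons of a member's fold change with an alternative (16 members), 208 kept direction and side of the threshold, 12 lost the call, 6 gained it and 12 changed sign, the last in 4 members that were not called. Hox genes called (4, with 3 lower and 1 higher) ranged over the fits that leave out 1 lung from 2 to 5, those lower from 2 to 3 and those higher from 0 to 2. The number called was 2 without both TNF-Tg 1 and WT 1 (0 higher), and 1 at a minimum log2 fold change of 1 (1 lower, 0 higher). Higher Hox genes numbered 3 with limma-voom, where Hoxb7 and Hoxb8 were added, 2 with at least 10 counts in every lung, 0 with total counts only and 0 with the replicate block. With the replicate block, Hoxa2 was not called (adjusted p = 0.094) and 3 Hox genes and 7686 genes in all were called. The block also moved by over 1.5 times the counts called among axial regulators (1), fat cell markers (3), skeletal muscle markers (0) and squamous epithelium markers (2). Without the filter on low counts Hoxa2 was not called (adjusted p = 0.0601) and Hoxb9 was. With one lung left out, retinoic acid genes called ranged from 6 to 9, Polycomb genes from 4 to 11, axial regulators from 0 to 2 and noncoding genes from 1 to 2. Without both TNF-Tg 1 and WT 1, these were 5, 2, 0 and 0, and Trithorax genes 3. At the minimum log2 fold change of 1, 4320 genes in all, 3 TALE cofactors, 4 retinoic acid genes, 2 flanking genes, and 0 Polycomb, 0 Trithorax, 0 axial and 0 noncoding genes were called. Polycomb genes numbered 6 with total counts only. Axial regulators numbered 1 with DESeq2 and with its size factors in edgeR, and 0 with total counts only or no filter. Noncoding genes numbered 2 with the size factors and with at least 10 counts in every lung. The sign of Hoxd9 turned with DESeq2 (-0.02), its size factors (-0.01), total counts only (-0.01) and no filter (-0.00), and with 1 lung left out ranged from -0.25 to 0.42. That of Hoxa6 was 0.05 without both TNF-Tg 1 and WT 1, and ranged from -0.77 to 0.04 with 1 left out, as did Hoxa3 from -0.24 to 0.05 and Hoxb3 from -0.26 to 0.03. The causes of these changes were not tested. The 22 members that were not tested had too few counts for the filter.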
